A study of Bos taurus with 24 samples.

Results

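The genes described here include those that drive or mark cell division, with others that share part of a symbol with them. They were chosen by symbol, as features of the array with a single gene symbol that begins with CCNA, CCNB, CCNE, MCM, CDC, BUB, PLK, AURK, KIF, CENP or CKS, or that is PCNA, TYMS, BIRC5, CCND1, CCND3, UBE2C, H2AZ1, HMGB2 or STMN1. Of 9425 genes with a single symbol on the array, 89 met this rule, with 119 of the 17418 features. Values on enough arrays for testing were present for 83 of them, among 9026 genes tested. The other 6 (CDC6, CENPK, AURKC, MCMBP, KIF3C and KIFAP3) had values on fewer than 20 arrays and are not analysed here. A further 5 features carry a member's symbol beside that of another gene and were left out.

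A dividing cell copies its DNA in S phase and separates the copies in mitosis. The MCM proteins form the helicase that opens replication origins, PCNA clamps the polymerases to DNA, and TYMS makes thymidylate for the new strands. Cyclin B with its kinase starts mitosis, kinesins and centromere proteins move the chromosomes, and the ubiquitin enzyme UBE2C helps the anaphase-promoting complex to end it. In an antral follicle the granulosa cells are the main dividing population, and their rate of division changes as a follicle grows, becomes dominant or regresses.

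The samples were total RNA of 16 large ovarian follicles, 8 to 12 mm in diameter, from as many heifers. The follicles carry the identifiers 8, 26, 27, 31, 33, 46, 861, C10, C12, C13, C22, C26, C32, C35, H893 and J980, and nothing in the labels used here gives them a treatment, age, breed, stage or status. Each of 24 two-colour arrays compared a pair of follicles, so that every follicle was measured on 3 arrays. There are no treatment groups, and the comparison the design allows is between follicles.

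Levels below are follicle effects from that loop, relative to the mean of the 16 follicles, on a scale taken as log2. The ratio was taken as Cy5 over Cy3, the order in which the labels name the channels. This is likely but not stated, and all signs below turn round if the ratio ran the other way. The base of the logarithm is not stated either. Each level has an SE from array error over 3 arrays, with a median of 0.14 over the members. Since each animal gave 1 follicle, this SE holds no spread between animals. The array count limits the precision, and signal over background is unknown. In whole-follicle RNA, fewer cells of a type and less RNA per cell cannot be told apart.

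Follicle J980 stood apart across the series. It had the lowest level for 421 (39.7%) of the 1061 genes that differed between follicles, and for 1396 (15.5%) of all genes tested. It had the highest level for 91 (8.58%) of the genes that differed and for 1217 (13.5%) of all genes tested, shares that change places with those for the lowest level if the ratio ran the other way. Over all genes tested J980 was not shifted, with 4468 of 9026 below 0. Granulosa markers were also lowest there, with 11 of 12 below 0 and a mean level of -0.68, against -0.33 in follicle 26, the next lowest. Of 17 leukocyte markers 9 were above 0 in J980 and 8 below 0, with a mean level of 0.14 ± 0.04. That mean includes CXCR4 at 2.06, the highest of them. All 3 erythrocyte markers were below 0. Since the files hold ratios between follicles and no levels, whether a marker was present at all could not be read from them. The main counts and calls are therefore also given without J980 and its 3 arrays.

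Of the 83 members tested, 24 differed between follicles by limma's moderated F test over all follicle effects. The threshold was 0.05 after Benjamini-Hochberg adjustment over all genes tested. Of all genes tested 11.8% passed. At an unadjusted p under 0.05 there were 36 members, where 26.5% of all genes were under it. Without J980, 14 members passed, where 7.47% of all genes did, and 13 of the 14 also passed with all follicles. Leaving out a single array gave 15 members in the lowest case, for the second array with follicle 33 in Cy5 and likewise for that with follicle 31. Since the members were chosen with results of these data known, their count was not tested against the share of all genes.

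The calls were counted by role, with no test between roles. Of 28 mitosis genes 14 passed, of 14 S phase genes 3, of 3 chromatin and tubulin proteins of dividing cells all 3, and of both G1 cyclins both, with PLK5 and CDC16 from the other roles. The rule also takes in genes that share a name but serve other ends. None of 8 genes of the CDC42 pathway passed, which regulates the actin skeleton, although 3 had an unadjusted p under 0.05. The same held for 9 kinesins of intracellular transport, of which 0 passed by limma and 3 had an unadjusted p under 0.05. Without J980 one of them passed, KIF1C (adjusted p = 0.0201), which is named after its value was seen. Of 7 other centromere and checkpoint proteins 0 passed by limma and 1 had an unadjusted p under 0.05. Over all genes tested 11.8% passed, and 26.5% had an unadjusted p under 0.05. In roles of 7 to 9 genes a count of 0 lies near that 11.8%, so it is no result about these roles. The median SD over follicles was 0.27 for mitosis genes and 0.17 for S phase genes, beside 0.17 for all genes tested. Median array error was similar, at 0.18 for the mitosis genes, the S phase genes and all genes.

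**Figure D1:**
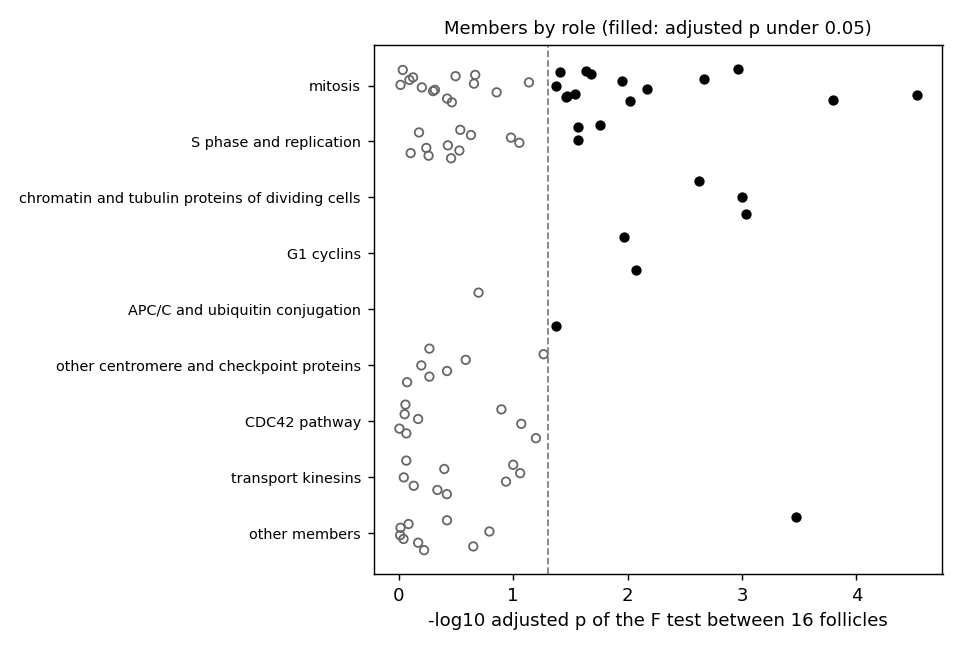
Each point is a member, placed by role (vertical axis) and by -log10 of its adjusted p in limma's F test between 16 follicles (horizontal axis); filled points passed at 0.05, the dashed line. CCNB1 and BIRC5 reach furthest, followed by PLK5, H2AZ1 and HMGB2, and none of the CDC42 pathway or transport kinesin points is filled.

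Among the mitotic regulators CCNB1, cyclin B1, differed most. Its lowest level was -1.35 ± 0.12 (SE, 3 arrays) in J980, its median 0.19 and its highest 0.99 ± 0.11 in follicle 31. The difference passed with all follicles (limma, adjusted p = 2.98e-05) and without J980 (adjusted p = 9.05e-04). Between these ends most neighbouring follicles lay within 2 SE of each other, and no grouping was tested. J980 was followed by C10 at -0.78, follicle 26 at -0.72, C35 at -0.71 and C26 at -0.60, while H893 at 0.84 and C22 at 0.71 came next to follicle 31. Of the 15 steps between neighbours in this order 2 exceeded 2 SE of the difference, J980 to C10 and C32 to follicle 27.

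The measured ratios behind these levels can be read directly. On its 3 arrays J980 had a CCNB1 log2 ratio of -1.93 over follicle 8, -1.69 over follicle 27 and -0.37 over follicle 26. J980 was below its partner each time, in both dyes, and by least against follicle 26, itself low. Follicle 31 had 1.65 over C10, 0.52 over C13 and 0.12 over H893.

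BIRC5, or survivin, a subunit of the chromosomal passenger complex, had the same lowest and highest follicles as CCNB1, with other follicles in another order. It lay between -1.47 ± 0.13 in J980 and 0.79 ± 0.12 in follicle 31, with a median of 0.11 (limma, adjusted p = 1.60e-04, and 0.00635 without J980). The next lowest follicle was 26, at -0.87. On the arrays of J980 its ratio was -2.13 over follicle 8, -1.56 over follicle 27 and -0.36 over follicle 26. AURKB, the kinase of that complex, ranged only from -0.35 in J980 to 0.31 in follicle 31 (adjusted p = 0.0096). Its 2 features had r = 0.25 over the follicles, so its mean rests on features that differ.

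UBE2C ranged from -0.74 ± 0.10 in J980 to 0.48 ± 0.10 in C22, with a median of 0.05 (limma, adjusted p = 0.00109). Its 2 features had r = 0.82. KIF20A, a kinesin of the late spindle and of cytokinesis, ranged from -0.77 ± 0.16 in J980 to 0.95 ± 0.16 in follicle 31 (adjusted p = 0.00214). CDCA3, which promotes the degradation of the mitosis inhibitor WEE1, ranged from -0.56 in C10 and in J980 to 0.53 in C22 (adjusted p = 0.00675). These 3 genes and AURKB passed without J980 as well, with adjusted p of 0.0137, 0.0106, 0.0304 and 0.0319, and so did CCNA2, cyclin A2 (0.0468).

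Other mitosis genes lost the call without J980 and its arrays or in fits that left out 1 array, and the cause was not tested. CKS1B, a small subunit that binds cyclin-dependent kinases, was at -1.30 ± 0.18 in J980, while the next lowest follicle, 861, was at -0.17 and the highest, C22, at 0.55. Its adjusted p was 0.0111 with J980 and 0.253 without it. PLK1, the polo-like kinase of mitotic entry, ranged from -0.93 in J980 to 0.80 in follicle 31 (0.0231, and 0.0756 without J980). Scaling arrays to a common spread or leaving out moderation also removed the calls of CKS1B and PLK1. The calls of the chromokinesin KIF4A, the spindle kinesin KIFC1, the checkpoint kinase BUB1B and the kinetochore motor CENPE were also lost without J980, with adjusted p from 0.0828 to 0.125. BUB1B and CCNA2 each lost the call in 14 fits that left out 1 array, and KIFC1 and CENPE in 18.

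CCNB2, the second B-type cyclin, did not follow CCNB1. Its highest level was 0.45 ± 0.09 in J980 and its lowest -0.39 ± 0.08 in C10, with a median of -0.04 (limma, adjusted p = 0.029). J980 was above its partner on all 3 arrays, by 0.12 over follicle 8, 0.35 over follicle 27 and 0.80 over follicle 26. Its Pearson r with the mean of the other mitosis genes was -0.11 over 16 follicles and 0.11 without J980. The call was lost without J980 (adjusted p = 0.186), without the dye term and in 14 fits that left out 1 array, and the gene had a single feature.

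The other 14 mitosis genes did not pass. CENPN came nearest (adjusted p = 0.0727), with levels from -0.35 in C12 to 0.27 in follicle 27. CDC20, the activator of the anaphase-promoting complex, lay between -0.21 in C35 and 0.38 in follicle 8 (adjusted p = 0.139), and J980 had its second highest level. KIF11, a spindle motor, had levels as far apart as -1.17 and 1.04, but an array error SD of 0.67 and values on 20 arrays, so this range is within its error (adjusted p = 0.806). AURKA, BUB1, CENPF, CENPM, CDC25B, CDC25C, CDCA8, KIF2C, KIF20B, KIF22 and PLK4 had adjusted p from 0.214 to 0.965. With 1 feature per gene KIF2C passed (limma, adjusted p = 0.042), but its 3 features had r as low as -0.17 over the follicles. CENPN passed without moderation and in 1 fit that left out 1 array.

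**Figure D2:**
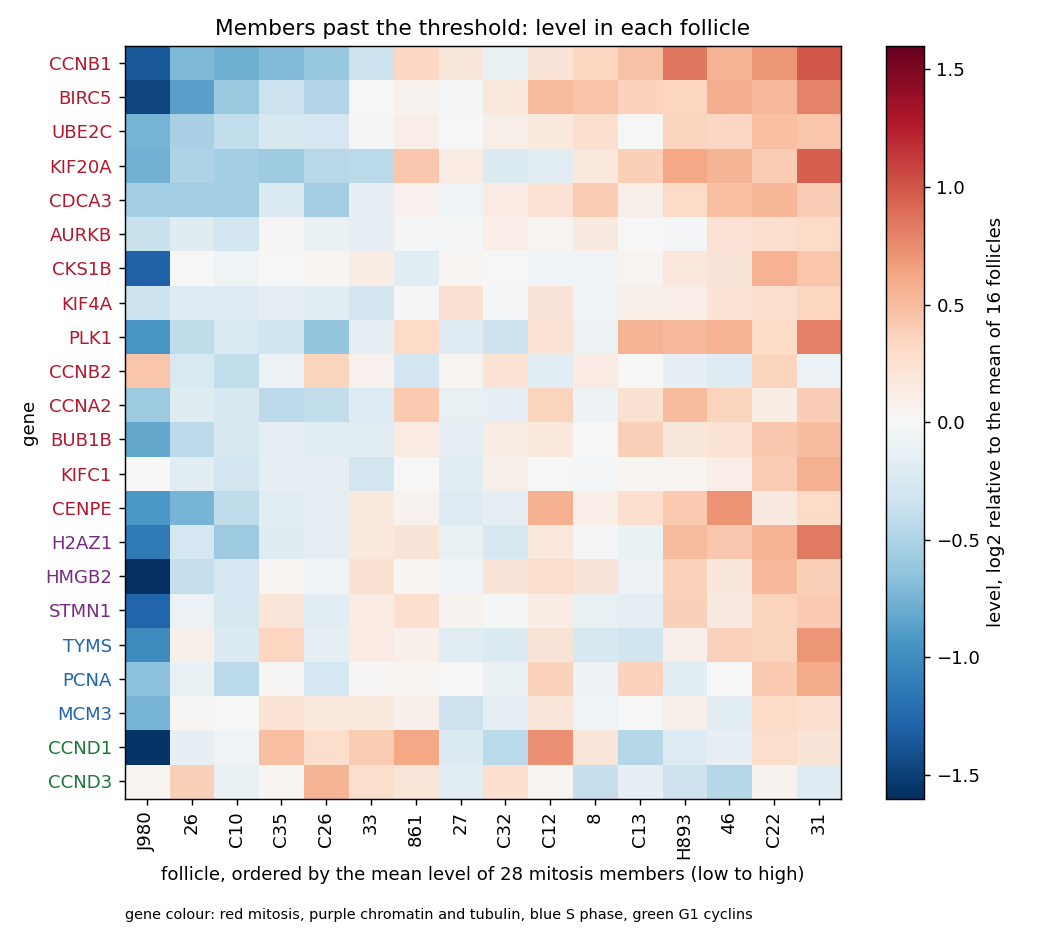
Levels (colour, log2 relative to the mean of 16 follicles) of 22 members past the threshold, in rows grouped by role, with follicles in columns from the lowest to the highest mitosis mean. J980 is the lowest follicle for CCNB1, BIRC5, UBE2C, KIF20A, CKS1B, HMGB2, STMN1, MCM3 and CCND1, by a gap beyond 2 SE of the difference for each of these except KIF20A. CCNB2 is highest in J980.

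H2AZ1, HMGB2 and STMN1 are abundant in dividing cells. H2AZ1, a histone variant, ranged from -1.13 ± 0.14 in J980 to 0.83 ± 0.13 in follicle 31, with a median of -0.07 (limma, adjusted p = 9.17e-04). HMGB2, a DNA-bending chromatin protein, was at -1.62 ± 0.15 in J980, and the other follicles lay between -0.36 and 0.52 (adjusted p = 9.92e-04). STMN1, stathmin, which destabilises microtubules, was at -1.27 ± 0.13 in J980, with the others between -0.26 and 0.42 (adjusted p = 0.00239). On its 3 arrays the HMGB2 ratio of J980 over its partners was -1.48, -1.71 and -1.43. All 3 genes passed without J980, with adjusted p of 0.00533, 0.0137 and 0.025, and none lost the call in any alternative.

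S phase genes varied less, and 3 of 14 passed. TYMS was at -1.02 ± 0.19 in J980, its median was 0.08 and its highest level 0.70 ± 0.19 in follicle 31 (limma, adjusted p = 0.0175, and 0.0425 without J980). PCNA ranged from -0.66 ± 0.18 in J980 to 0.60 ± 0.17 in follicle 31, with C10 next lowest at -0.43 (adjusted p = 0.0272). MCM3 was at -0.75 ± 0.12 in J980, while the other 15 follicles lay between -0.33 and 0.31 (adjusted p = 0.0273). PCNA and MCM3 lost the call without J980 (adjusted p = 0.0785 and 0.246). In fits that left out 1 array the call was lost 8 times for PCNA, 7 for MCM3 and 1 for TYMS. MCM3 also lost it with no dye term and with 1 feature per gene. The ratio of J980 over its 3 partners was -0.47 to -0.71 for PCNA and -0.20 to -0.92 for MCM3. So without J980 TYMS was the S phase gene past the threshold. Without limma's moderation of the variances 0 of 14 passed, with 6 at an unadjusted p under 0.05. The count over all genes also fell without moderation, as the last section gives, and the 0 was not tested against it.

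The remaining helicase subunits did not pass. MCM2 ranged from -0.46 in J980 to 0.45 in follicle 31 (adjusted p = 0.0882), but its 2 features had r = -0.11 over the follicles. With 1 feature per gene it passed (adjusted p = 1.54e-04). MCM4 ranged from -0.33 in J980 to 0.25 in C22 (adjusted p = 0.104), and its 2 features had r = 0.60. MCM5, MCM6 and MCM7 ranged over 0.47 to 0.53 (adjusted p from 0.234 to 0.664). MCM10 and CDC45, which assemble the active helicase, and CCNE1 and CCNE2, the E cyclins that start S phase, had adjusted p from 0.295 to 0.548. In CDC45, MCM10, CCNE2 and CDC25A J980 was above the mean of the follicles, at 0.13 ± 0.14, 0.11 ± 0.13, 0.18 ± 0.14 and 0.11 ± 0.09 (SE, 3 arrays).

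The G1 cyclins, which carry mitogenic signals into the cycle, had unlike patterns. CCND1 was at -1.57 ± 0.24 in J980, with the other follicles between -0.46 in C13 and 0.74 in C12 (limma, adjusted p = 0.00843). Its 2 features had r = 0.95, and its call was lost without J980 (adjusted p = 0.112) and without moderation. CCND3 ranged from -0.46 ± 0.13 in follicle 46 to 0.54 ± 0.11 in C26, with J980 at 0.03 (adjusted p = 0.0108, and 0.0377 without J980). Its r with the mitosis mean was -0.52 over 16 follicles and -0.58 without J980.

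PLK5 and CDC16 were the remaining members past the threshold. PLK5, a polo-like kinase that in humans lacks an active kinase domain, was at 1.55 ± 0.16 in follicle 31, 0.98 in C26 and 0.80 in C32, and below 0.05 in every other follicle (limma, adjusted p = 3.36e-04, and 0.0013 without J980). Its r with the mitosis mean was 0.27 and 0.17 without J980. CDC16, a subunit of the anaphase-promoting complex, was at -0.71 ± 0.13 in J980 (adjusted p = 0.042), a call lost without J980 and in 21 of 24 fits that left out 1 array. CENPT, which links the centromere to the kinetochore, came close to the threshold with levels from -0.61 in J980 to 0.47 in C22 (adjusted p = 0.0542).

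**Figure D3:**
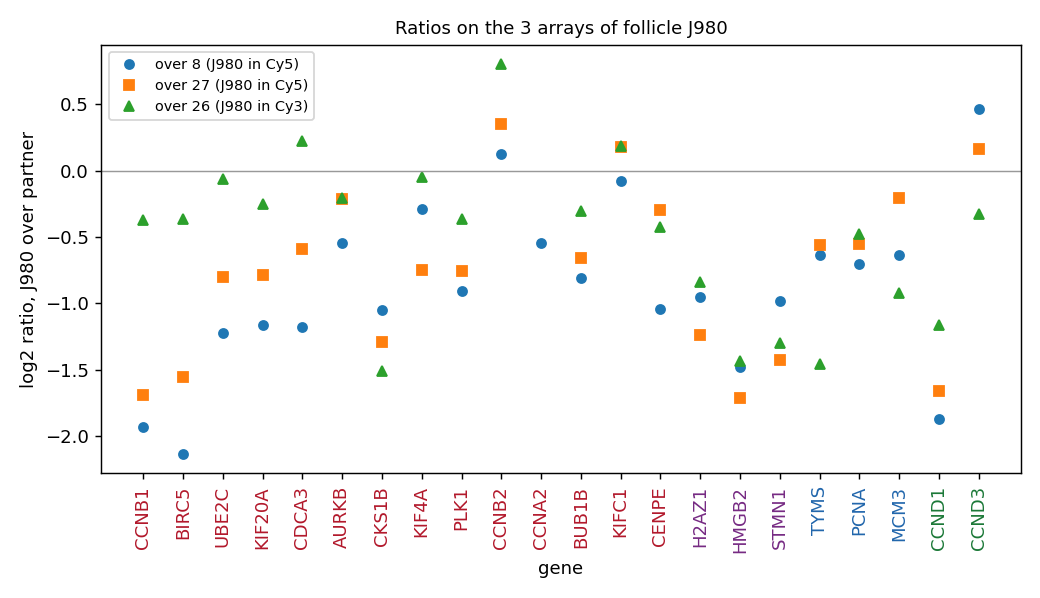
Measured log2 ratio (vertical axis) of J980 over each of its 3 partner follicles, for 22 members past the threshold. HMGB2, STMN1 and CKS1B lie between -0.98 and -1.71 against all partners, whereas CCNB1 and BIRC5 lie between -1.56 and -2.13 against follicles 8 and 27 and at -0.37 and -0.36 against follicle 26. CCNA2 has a value on 1 of these arrays.

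The S phase and mitosis genes were then compared over follicles by their mean levels. The mitosis mean of 28 genes was lowest in J980 at -0.31 ± 0.04 and highest in follicle 31 at 0.29 ± 0.04, with an SD of 0.175 over follicles. The S phase mean of 14 genes had the same lowest and highest follicles, at -0.29 ± 0.04 and 0.18 ± 0.04, and an SD of 0.108. In each order of 15 steps the gap above J980 was the one that exceeded 2 SE of the difference. That gap was 0.18 ± 0.06 to C10 in the S phase mean and 0.09 ± 0.04 to follicle 26 in the mitosis mean. All other neighbours lay within 2 SE of each other.

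The means of S phase and mitosis were correlated over 16 follicles with a Pearson r of 0.66 and a Spearman rho of 0.51. Without J980 and its arrays r was 0.54 and rho 0.53. These are descriptions, since all levels come from the same arrays and their errors are linked through the loop. Without J980 the SD of the S phase mean was 0.0758.

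The 2 means parted most in C35 and follicle 26. In C35 the mitosis mean was -0.18 ± 0.04 and the S phase mean 0.07 ± 0.04, a difference of -0.25 ± 0.05 for mitosis minus S phase. In follicle 26 the mitosis mean was -0.22 ± 0.03, the S phase mean -0.00 ± 0.04 and the difference -0.22 ± 0.05. In these follicles CCNB1 was at -0.71 and -0.72, while TYMS was at 0.34 and 0.08. The difference had the opposite sign in C13, at 0.17 ± 0.05, with a mitosis mean of 0.11 and an S phase mean of -0.07. In follicle 46 it was 0.14 ± 0.05, with a mitosis mean of 0.17 and an S phase mean of 0.03. CCNB1 was at 0.47 in C13 and 0.55 in follicle 46. TYMS was at -0.32 in C13 but at 0.37 in follicle 46, above its level in C35. In J980 and in follicle 31, the ends of both orders, the difference was -0.03 ± 0.05 and 0.10 ± 0.05.

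**Figure D4:**
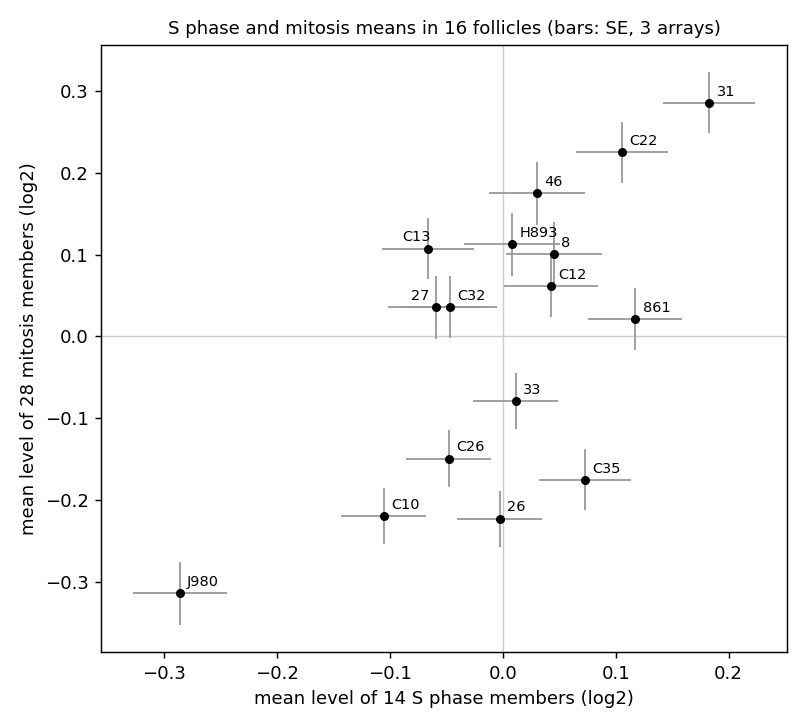
Mean level of 14 S phase genes (horizontal axis, log2) and of 28 mitosis genes (vertical axis, log2) in each of 16 follicles, with SE from 3 arrays as bars. J980 lies at the lower left and follicle 31 at the upper right; C35 and follicle 26 have low mitosis means beside S phase means near 0.

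Single genes within each phase were compared by their pairwise r over follicles. Over all 378 pairs of mitosis genes the median Pearson r over follicles was 0.24, and over 91 pairs of S phase genes it was 0.08, beside -0.00 over all pairs of genes tested. Between the phases the median of 392 pairs was 0.14. Without J980 these medians were 0.35, 0.08 and 0.09. Leaving out single arrays gave 0.19 to 0.41 for mitosis (highest without the array with C10 in Cy5), 0.01 to 0.15 for S phase and 0.09 to 0.16 between the phases. The SE from these fits (jackknife over arrays) was 0.22 for the mitosis median, 0.17 for S phase and 0.09 between the phases. With these SEs the mitosis and S phase medians are not told apart. Among the 14 mitosis genes past the threshold the median r was 0.79 (0.75 without J980), over single pairs from -0.46 to 0.96. Between these 14 and the 3 S phase genes past the threshold it was 0.62, and 0.41 without J980. The medians over all members include the genes that did not pass the F test. Those past the threshold were picked by a test on these same levels. Of them, 11 of the 14 mitosis genes and all 3 S phase genes were lowest in J980. The median of -0.00 is over all genes tested, not over those that passed, so it is no like baseline for 0.79 and 0.62.

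Each gene was also set against the mean of the other genes of a phase. CCNB1 had r = 0.96 with the mitosis mean and 0.68 with the S phase mean, and without J980 0.95 and 0.51. UBE2C, BIRC5, CDCA3 and BUB1B had r from 0.91 to 0.95 with the mitosis mean, and 0.79 to 0.95 without J980. STMN1 had r = 0.90, MCM4 0.88, H2AZ1 0.87 and TYMS 0.84 with the S phase mean, against 0.68, 0.71, 0.86 and 0.58 with the mitosis mean. Without J980 these were 0.81, 0.81, 0.74 and 0.75 with the S phase mean and 0.68, 0.61, 0.85 and 0.52 with the mitosis mean, so that H2AZ1 then lay nearer to mitosis. CCND1 had r = 0.81 with the S phase mean and 0.31 with the mitosis mean, and 0.56 and -0.10 without J980. CENPF and KIF11 had r of -0.59 and -0.47 with the mitosis mean, at levels that did not pass the F test.

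**Figure D5:**
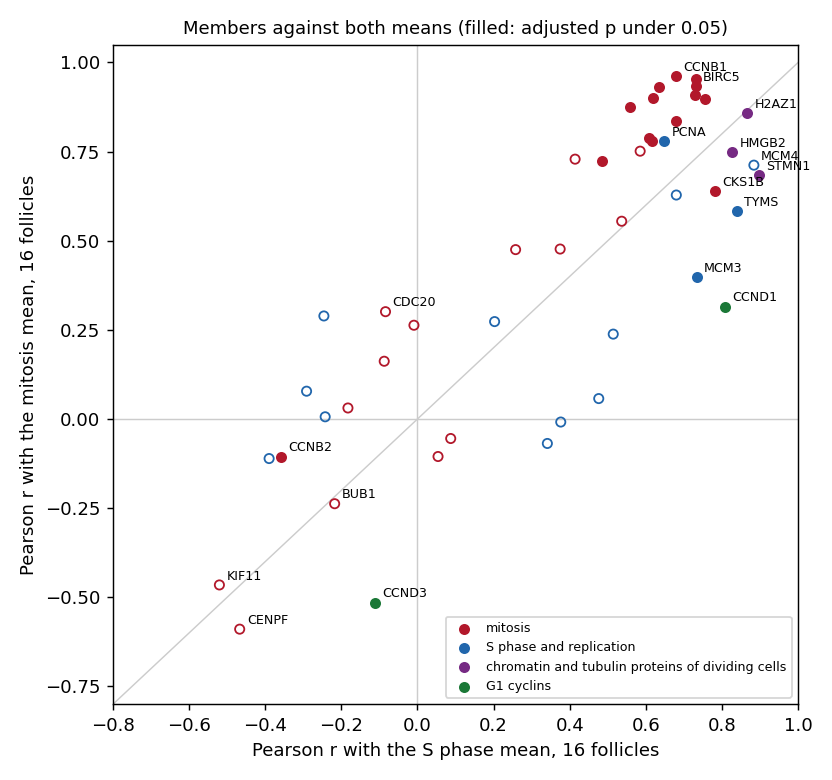
Pearson r over 16 follicles of each S phase, mitosis, chromatin, tubulin and G1 cyclin member with the S phase mean (horizontal axis) and the mitosis mean (vertical axis), the gene itself left out of its own mean; filled points passed the F test. CCNB1 and UBE2C are at the top, TYMS, MCM3 and CCND1 lie below the diagonal, and CCNB2 and CCND3 are the filled points at or below r = 0 on the vertical axis.

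Division genes that the rule does not name gave further values. Of 24 other mitosis genes 7 passed (29.2%), of 33 other replication genes 4 (12.1%), of 19 kinases, D cyclins and E2F, RB and MYB regulators 2, and of 9 cell cycle inhibitors 4 (44.4%). Over all genes tested 11.8% passed, so that the shares of the replication genes and of the regulators (10.5%) were near that of all genes. Without J980 the 4 counts were 6, 3, 0 and 3. KPNA2, an importin, ranged from -1.01 in J980 to 0.69 in follicle 31 (limma, adjusted p = 7.81e-05, and 0.00162 without J980). SPC24, of the kinetochore's NDC80 complex, ranged from -0.97 in J980 to 0.94 in follicle 31 (7.90e-05, and 0.00149 without J980), and SMC4, a condensin subunit, from -0.86 in J980 to 0.34 in H893 (0.0151, and 0.0956 without J980). CKAP2, a spindle protein, was lowest in follicle 27 at -1.04 and highest in C32 at 0.88 (0.0217, and 0.044 without J980). The mean of these 24 genes had r = 0.85 with the mitosis mean over 16 follicles and 0.87 without J980. MKI67, the proliferation antigen Ki-67, is named after its values were seen. It did not pass (limma, adjusted p = 0.174), with levels from -0.47 in follicle 26 to 0.60 in C32.

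FOXM1, the transcription factor of mitotic genes, ranged from -1.13 ± 0.20 in J980 to 0.78 in follicle 31 (limma, adjusted p = 0.0237, and 0.113 without J980). CCND2, the D cyclin that FSH induces in rodent granulosa cells, ranged from -0.80 ± 0.20 in J980 to 0.59 in 861 (adjusted p = 0.0192, and 0.0788 without J980). E2F1 did not pass (adjusted p = 0.62), with levels from -0.11 to 0.12. Of the replication genes RPA3, a subunit of the single-strand binding protein, ranged from -0.60 in follicle 26 to 0.49 in follicle 31 (0.00145, and 0.0158 without J980). POLD2, of polymerase delta, ran from -0.90 in 861 to 0.95 in follicle 26 (0.0188), PRIM1, of primase, from -0.39 in follicle 46 to 0.52 in follicle 33 (0.0259), and RFC3, of the clamp loader, from -0.45 in J980 to 0.40 in C12 (0.0428). Without J980 POLD2 and PRIM1 passed (0.034 and 0.0396) and RFC3 did not (0.079).

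Among inhibitors GADD45A, a stress-induced gene, was highest in C22 at 0.68, with J980 at 0.61 ± 0.14 (limma, adjusted p = 0.00254, and 0.00201 without J980), and lowest in H893 at -0.49. GADD45B had its lowest level in J980, at -1.04 ± 0.17 (adjusted p = 0.0282). It passed without J980 as well (0.0235). The antiproliferative genes BTG2 and BTG1 ranged from -0.54 in C12 to 0.67 in follicle 33 (0.00342) and from -0.70 in C13 to 0.52 in C26 (0.0344). Without J980 BTG2 passed (0.00967) and BTG1 did not (0.0544). CDKN1A, the inhibitor p21, did not pass (adjusted p = 0.0581), with levels from -0.18 in C35 to 0.40 in follicle 46. The mean of the inhibitors had r = -0.16 with the mitosis mean.

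Over all other genes tested, those with the highest Pearson r with the mitosis mean were KPNA2 (0.97), TROAP (0.96), ARHGAP30 (0.93), B3GALNT2 (0.92) and RHNO1 (0.91). TROAP, a spindle-associated protein, and RHNO1, of the DNA damage response, did not pass the F test (limma, adjusted p = 0.0507 and 0.359). For the S phase mean they were BCCIP (0.93), PSMA5 (0.92), HMGN2 (0.91), RBM8A (0.91) and MRPL18 (0.90). The 5 genes nearest to each mean were picked by r with a mean that was itself lowest in J980, and all were lowest in J980. HMGN2, a nucleosome-binding protein, was at -1.30 there (adjusted p = 5.51e-04). Without J980 r was 0.82 to 0.97 for the genes nearest to mitosis and 0.68 to 0.84 for those nearest to S phase.

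Markers of the cell types in a follicle were set against the mitosis and S phase means. The granulosa mean of 12 markers had r = 0.66 with the mitosis mean and 0.67 with the S phase mean, and 0.50 and 0.31 without J980. It ranged from -0.68 in J980 and -0.33 in follicle 26 to 0.32 in follicle 8, and INHBA, which encodes an activin subunit, was at -2.69 ± 0.17 in J980. The mean of 12 endothelial and stromal markers had r = -0.46 with the mitosis mean and -0.71 without J980. That of 17 leukocyte markers had r = -0.53 and -0.57, and of 7 theca markers -0.28 and -0.42. With the S phase mean, r was -0.12 for endothelial and stromal, -0.35 for leukocyte and 0.01 for theca markers. Without J980 it was -0.40, -0.25 and -0.21. Of the rule's other genes, the mean of 8 CDC42 pathway genes had r = 0.65 with the mitosis mean and that of 9 transport kinesins r = 0.11. Both means had an SD over follicles below their median SE, at 0.050 beside 0.062 and 0.097 beside 0.106. In both, 0 follicles lay beyond 2 SE, so these r rest on levels within array error. The part of cell makeup in the levels of division genes was not tested.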

How the data were processed

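The authors' deposited values are log ratios of the 2 channels of each array, taken here as log2 because the largest absolute value (6.32) lies above the limit of 4.82 for log10 ratios from a 16-bit scanner; natural logs remain possible. Per the labels' protocols, 5 µg of total RNA per follicle was hybridised and images were read in GenePix Pro 4.0.1.12. For background correction, spot filter and normalization the sources used here give nothing. Array medians lay between -0.014 and 0.0064, and SDs between 0.28 and 0.54. Symbols come from the platform annotation, which can be old; all 119 member features matched RefSeq gene IDs, with 0 symbols changed.

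Arrays were median-centred. Features needed values on at least 20 arrays, and those sharing a symbol were averaged. The model held a follicle effect (plus for Cy5, minus for Cy3) and a common dye term over 24 arrays, leaving 8 residual degrees of freedom. One F test per gene covered all follicles, with variances moderated by limma 3.58.1 in R 4.3.3 and Benjamini-Hochberg adjustment over all genes tested. It was tested on simulated data. Role means were taken per array over the genes with a value there. They were fitted with the same model but without moderation of the variances, and r is given with no p. Members, roles and lists were chosen with earlier results of these data known. By the naming rule, members of the division roles may be named, and of other roles those past the threshold and the 2 of smallest p; of each further list at most 4 past the threshold, with CCND2, CDKN1A, FOXM1 and E2F1; and the 5 genes nearest to each mean. Alternatives changed centring, scaling, minimum arrays, dye term, moderation, feature choice, score, and the arrays or follicles included. Promoter sequences were not analysed here. Figures used matplotlib 3.10.9 in Python 3.11.15.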

Additional observations from a re-analysis of the deposited data

How the results depend on the processing

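The count of members past the threshold was 24, and 13 without moderation and 14 without J980 and its arrays. The mitosis count was 14, and 9 with arrays scaled to a common spread, 8 with no dye term, 8 with unmoderated variances and 7 when J980 was left out. The S phase count was 3, and 0 without moderation and 1 without J980. The count over all genes was 1061, and 608 with no dye term, 589 with unmoderated variances and 673 when J980 was left out. Arrays are named by their Cy5 follicle. Leaving out 1 array gave 681 (follicle 33, replicate 2) to 1172 genes (688 without follicle 31, replicate 2), 15 to 23 members, 8 to 13 mitosis genes and 1 to 3 S phase genes. The low counts of mitosis genes, 8 or 9, came without arrays of follicle 33 (replicate 1 or 2), 31 (replicate 2), C26 (replicate 1), 8 (replicate 2), C22 (replicate 2) or J980 (replicate 2). The S phase count was 1 without the array of follicle 33, 31 or 8 (replicate 2 of each). The SD of the S phase mean was 0.108, 0.0758 without J980 and 0.0997 to 0.12 over fits without 1 array. That of the mitosis mean was 0.175 and 0.169 to 0.253, highest without the array of C10 (replicate 1). The r of the 2 means was 0.541 to 0.708 over these fits. The jackknife SE from these fits was 0.020 for the SD of the S phase mean, 0.077 for that of the mitosis mean and 0.18 for r. Of 24 member calls 11 held in every alternative: CCNB1, BIRC5, UBE2C, KIF20A, CDCA3, AURKB, H2AZ1, HMGB2, STMN1, CCND3 and PLK5. Without J980 11 were lost, without moderation 12 and without the dye term 8; the cause was not tested. J980 is not a replicated condition, and the F test carries array error alone.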
